A study of Mus musculus with 24 samples.

Results

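The genes described are 10 marker genes of endothelial cells, the cells that line blood and lymph vessels: Pecam1, Cdh5, Kdr, Tek, Tie1, Egfl7, Aqp1, Stab2, Lyve1 and Fabp4. They were chosen by name as known markers, by a rule that uses no measured value but with earlier results of these data known, and all 10 were among the 15323 genes of the deposited table. The study sequenced polyadenylated RNA from liver (median lobe) and heart (left ventricle) of male mice aged 10 weeks, to compare animals in which the mitochondrial DNA (mtDNA) and the nuclear genome come from the same or from different strains. A genotype names the nuclear genome first and the mtDNA after the colon. Both genomes match in BL/6J:C57 (C57BL/6 mice) and in NZB:NZB (NZB mice). The conplastic lines BL/6J:NZB and NZB:C57 were made by 10 generations of backcrossing so that the nuclear genome of one strain sits on the mtDNA of the other. RNA of 12 males per genotype was combined in pools of 4, giving 3 pools per genotype and tissue, 8 groups and 24 libraries. The mice received no treatment that the labels name. Replicates within a tissue are therefore pools of different animals, while livers and hearts of 1 genotype may come from the same animals. Titles of BL/6J libraries contain mix and those of NZB libraries contain rep, and if this marks some difference in handling, it and the nuclear genome cannot be told apart.

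Endothelial cells share a set of surface and junction proteins in every organ and add others according to the vessel. Vascular endothelial growth factors act on them through receptors such as Kdr, and angiopoietins act through Tek, with Tie1 as its partner receptor. Capillaries of the heart are continuous and take up fatty acids for the muscle, whereas the sinusoids of the liver are fenestrated and carry scavenger receptors that clear waste molecules from blood. In bulk RNA of a tissue, fewer cells of a type and less RNA per cell cannot be told apart.

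All members are annotated as protein coding in GRCm38. The adhesion molecules are Pecam1 (chromosome 11, 106654217 to 106750628, minus strand), a molecule of endothelial contacts, and Cdh5 (chromosome 8, 104101625 to 104144511, plus strand), the cadherin of endothelial junctions. The receptors are Kdr (chromosome 5, 75932827 to 75978458, minus strand), Tek (chromosome 4, 94739289 to 94874976, plus strand) and Tie1 (chromosome 4, 118471191 to 118490061, minus strand). Egfl7 (chromosome 2, 26580014 to 26593120, plus strand) encodes a secreted protein of the vessel wall. Aqp1 (chromosome 6, 55336432 to 55348555, plus strand) encodes a water channel that red cells and bile duct cells also use. Stab2 (chromosome 10, 86841198 to 87008025, minus strand) is a scavenger receptor of liver sinusoids, Lyve1 (chromosome 7, 110850607 to 110863239, minus strand) a hyaluronan receptor of sinusoids and lymph vessels that some macrophages carry, and Fabp4 (chromosome 3, 10204088 to 10208576, minus strand) a fatty acid binding protein of capillaries and of fat cells. Exons of Egfl7 overlap Agpat2 on the opposite strand, Gm20532 and the microRNA genes Mir126a and Mir126b. Of its 31-base words 6.62% occur in other genes, most of all in Gm20532, so its own level is uncertain where reads were divided. The other members shared at most 2.11% of their words with other genes.

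Kdr and Tek were among the members that moved together in the results given further on, while Tie1 and Egfl7 had smaller differences, and their upstream sequences are shown for comparison. The windows are the 250 bases before a transcription start (RefSeq, GRCm38.p6), given 5′ to 3′ on the gene's strand, with matches to the ETS factor motifs CCGGAA and AGGAAG, on either strand, in capitals. The windows lie at chr5:75978456-75978705 (Kdr, minus strand), chr4:94739039-94739288 (Tek, plus strand), chr4:118489850-118490099 (Tie1, minus strand) and chr2:26580833-26581082 (Egfl7, plus strand, 1 of its 3 annotated starts).
Kdr: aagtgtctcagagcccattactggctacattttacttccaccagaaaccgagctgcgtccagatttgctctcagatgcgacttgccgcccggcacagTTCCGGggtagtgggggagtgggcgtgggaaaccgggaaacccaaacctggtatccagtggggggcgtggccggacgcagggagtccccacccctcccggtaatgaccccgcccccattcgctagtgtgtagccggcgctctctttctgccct
Tek: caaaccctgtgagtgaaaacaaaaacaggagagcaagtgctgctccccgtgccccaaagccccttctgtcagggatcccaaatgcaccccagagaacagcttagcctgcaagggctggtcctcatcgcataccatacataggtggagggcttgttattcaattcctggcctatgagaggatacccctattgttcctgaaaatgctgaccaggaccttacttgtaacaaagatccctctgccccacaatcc
Tie1: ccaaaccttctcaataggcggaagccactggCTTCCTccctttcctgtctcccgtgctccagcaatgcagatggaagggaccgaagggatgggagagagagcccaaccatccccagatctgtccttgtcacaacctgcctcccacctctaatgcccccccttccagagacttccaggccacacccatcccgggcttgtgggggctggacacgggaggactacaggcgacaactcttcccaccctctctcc
Egfl7: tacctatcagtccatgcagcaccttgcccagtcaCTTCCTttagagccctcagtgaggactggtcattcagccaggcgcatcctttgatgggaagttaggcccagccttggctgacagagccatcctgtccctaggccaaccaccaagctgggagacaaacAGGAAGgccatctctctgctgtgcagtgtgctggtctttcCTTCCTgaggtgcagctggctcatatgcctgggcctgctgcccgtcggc
The Kdr window held 1 match to CCGGAA, which 12% of all 32851 windows of this length held. Tie1 held 1 match and the Egfl7 window shown held 3 matches to AGGAAG, present in 29.5% of all windows, and Tek held neither motif. Aqp1 and Stab2 each held 1 match to AGGAAG. The motif CACCC, bound by KLF and SP factors, was found in 5 of the 8 member windows and in 52.0% of all windows. The motif of SOX factors, ACAATG, was found in 0 of the 8 and in 10.7% of all windows. That of FOX factors, TAAACA, was found in 0 and in 12%. For binding sites of erythroid and endothelial zinc finger factors of the GATA family, searched as AGATAA, the figures were 0 and 9.99%. The core promoter element TATAAA gave 0 and 12.4%. The 2 ETS motifs did not overlap each other in the windows shown. Promoter entries were matched for 6 members, and Pecam1, Cdh5, Lyve1 and Fabp4 had none.

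Livers had 7294525 to 34974268 recovered reads each, and hearts 3714278 to 12949956. The 3 NZB:C57 hearts stood apart from the other hearts. Their 20 most abundant genes took 33.4% to 34.1% of counted reads, against 11.5% to 14.5% in the other 9 hearts, and their normalised values summed to 1048698 to 1068799, against 643486 to 726047. A summed level of 8 heart muscle markers was 252624 to 261558 in these 3 libraries and 27454 to 43989 in the other hearts. Comparisons of NZB:C57 hearts with other hearts are therefore given both on the authors' scale and as counts scaled to the library total (CPM). The pseudogene Gm13340, chosen after its values were seen, read 0.438 to 0.725 in livers of BL/6J:C57, 8.42 to 25.2 in those of BL/6J:NZB, but 6.79 to 15.6 in NZB:C57 and 15.8 to 18 in NZB:NZB livers. It thus did not mark NZB:C57 as carrying the mtDNA of BL/6J:C57, and the mtDNA of each group is taken from its label.

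The plot of levels gives all 10 genes on the authors' normalised scale, 1 point per library.

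**Figure D1:**
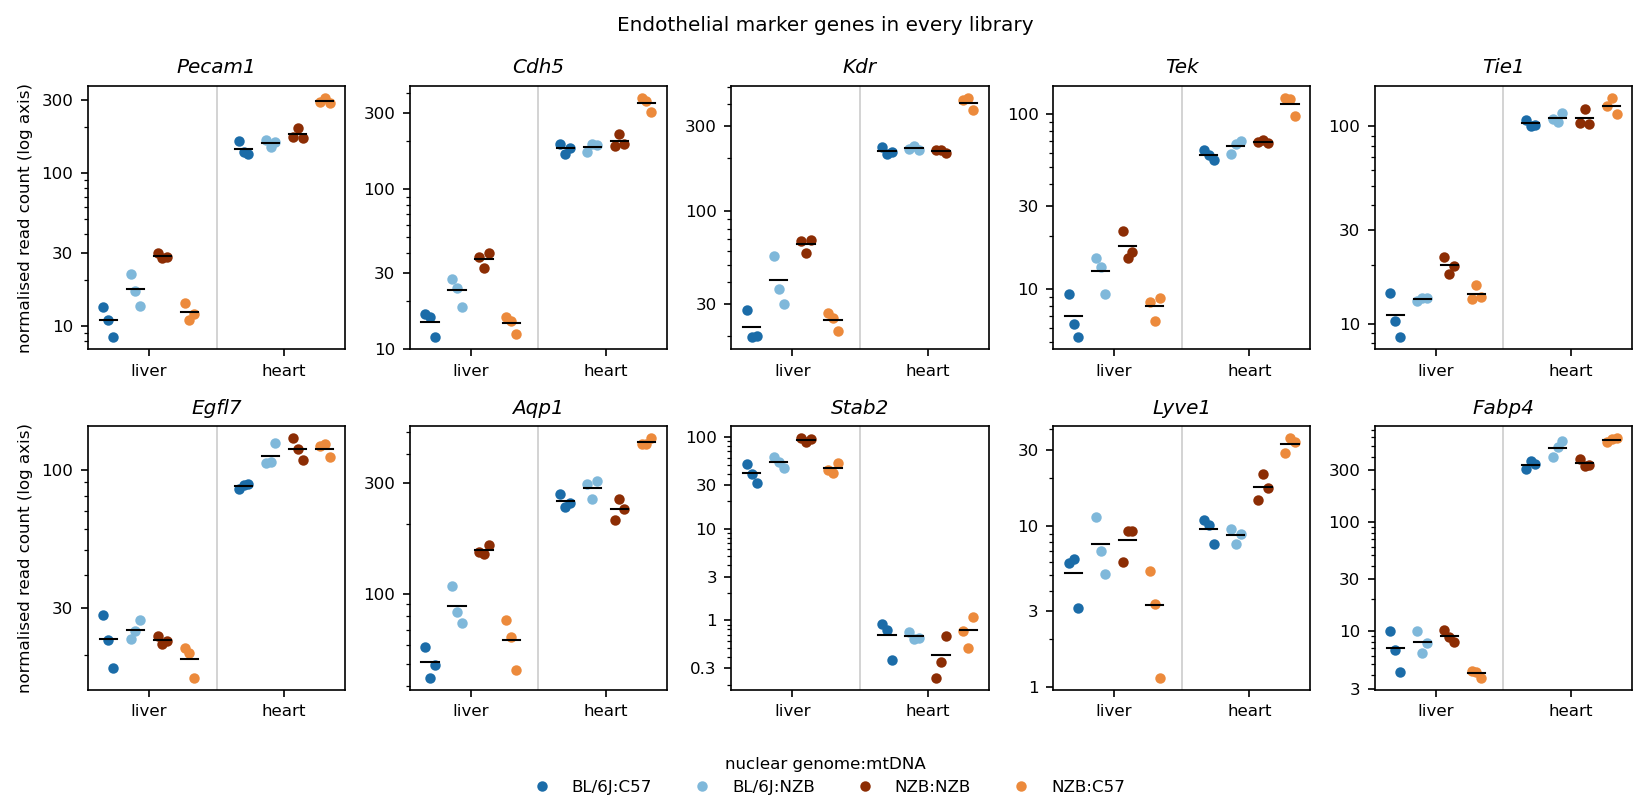
Normalised read count (log axis) of each endothelial marker gene in liver and heart; points are pools, colours are genotypes and bars are means of 3 pools. In liver, Kdr lies highest in NZB:NZB (mean 65.3) and lowest in BL/6J:C57 (22.4), in heart it lies highest in NZB:C57 (409), and Stab2 stays at 1.10 or below in every heart.

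Per kilobase of exon, Aqp1 was the most abundant member in liver, with a median of 29.0 over 12 libraries, followed by Egfl7 at 6.34, Stab2 at 5.87, Cdh5 at 4.16, Kdr at 3.22 and Tie1 at 2.77. Pecam1, Lyve1, Tek and Fabp4 had medians of 2.21, 2.04, 1.98 and 1.62. On this scale the order differed between genotypes: in NZB:NZB livers Stab2 (mean 10.7), Cdh5 (8.71) and Kdr (7.23) lay above Egfl7 (6.35). The length used joins all annotated exons of a gene. For Egfl7 it was 3581 bases, while its longest transcript has 1865, and for Cdh5 it was 4203 and 3995. The order of genes in both tissues depends on this choice of length. In heart, Aqp1 had a median of 99.9 per kilobase and Fabp4 one of 86.5, and Cdh5, Egfl7, Pecam1, Kdr, Tie1 and Tek followed between 45.6 and 14.6. Lyve1 at 4.38 and Stab2 at 0.0754 were the lowest. All further values are normalised read counts per gene, which are not compared between genes.

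Of these genes, 8 were higher in heart than in liver in all genotypes, and Stab2 was the 1 member that was lower. With limma on log2(value + 1), 9 members were higher and 1 lower in BL/6J:C57, where 37.3% of genes tested were called higher and 39.8% lower. The counts were 8 higher and 1 lower in BL/6J:NZB (37.5% and 38.4% of all genes), 9 and 1 in NZB:NZB (37.8% and 37.4%), and 9 and 1 in NZB:C57 (39.6% and 39.9%). Among the members higher in heart, Fabp4 had the largest difference in every genotype. Its log2 fold change of heart over liver was 5.46 (SE 0.18, adjusted p = 5.77e-18) in BL/6J:C57 and 6.80 (SE 0.18, adjusted p = 7.34e-20) in NZB:C57. Aqp1 had a difference of 2.30 (SE 0.15) in BL/6J:C57 and of 0.58 (SE 0.15, adjusted p = 0.00107) in NZB:NZB. Lyve1 did not pass in BL/6J:NZB (0.21, SE 0.30, adjusted p = 0.532), though it passed there by CPM (1.02, adjusted p = 0.00219). In BL/6J:C57 it passed at 0.83 (adjusted p = 0.0152), which was lost without liver replicate 3 (0.57, adjusted p = 0.108) or heart replicate 1 (0.74, adjusted p = 0.0551).

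Stab2 was seen with 210 to 1071 reads in every liver and with 2 to 10 reads in every heart. Its heart levels were 0.911, 0.795 and 0.370 for BL/6J:C57, 0.745, 0.635 and 0.645 for BL/6J:NZB, 0.238, 0.348 and 0.676 in NZB:NZB, and 0.764, 0.495 and 1.10 in NZB:C57. These counts are too low to order the hearts, and Stab2 was not tested within heart. On the log2(value + 1) scale, which understates differences of genes this low, it was lower in heart by -4.61 (SE 0.17) in BL/6J:C57 and -6.07 (SE 0.17) in NZB:NZB.

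In liver on the NZB nucleus, most endothelial markers were lower with C57 than with NZB mtDNA, by 1.95-fold to 2.61-fold for those that passed the test. With C57 in place of NZB mtDNA on the NZB nucleus (NZB:C57 against NZB:NZB), 7 of the 10 members were lower, where 4.44% of 13159 genes tested were lower. These were Pecam1, Cdh5, Kdr, Tek, Aqp1, Stab2 and Fabp4. All 10 log2 fold changes were below 0, with a median of -1.10 beside -0.00 over all genes.

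Kdr, the main signalling receptor for VEGF in endothelium, read 68.4, 58.4 and 69.1 in the NZB:NZB livers and 26.8, 25.2 and 21.2 in the NZB:C57 livers. The groups did not overlap, and the log2 fold change was -1.38 (SE 0.19, adjusted p = 0.000366, limma), or 2.61-fold lower. Overlap of groups, here and further on, only describes the values, as the share of all genes without overlap was not computed. Cdh5 read 37.7, 32.3 and 39.7 in NZB:NZB and 15.9, 15.1 and 12.5 in NZB:C57. This difference, -1.28 (SE 0.16, adjusted p = 0.000173), was again without overlap. Pecam1 fell from 28.7 ± 1.34 to 12.4 ± 1.56 (SD, n = 3 pools each), by 1.16 on the log2 scale (SE 0.18, adjusted p = 0.000791, limma). Tek, the angiopoietin receptor, read 21.6, 15.1 and 16.3 against 8.47, 6.60 and 8.89, with a log2 fold change of -1.05 (SE 0.21, adjusted p = 0.00638).

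Aqp1 read 152, 148 and 163 in NZB:NZB livers and 77.3, 65.2 and 46.8 in NZB:C57 livers (-1.31, SE 0.17, adjusted p = 0.000246). The sinusoidal scavenger receptor Stab2 read 97.9, 87.9 and 95.6 against 44.2, 40.8 and 51.9 (-1.03, SE 0.16, adjusted p = 0.000741). Neither gene overlapped between the groups. Lyve1 had the same direction and size, from 6.03, 9.34 and 9.40 to 5.25, 3.30 and 1.15, but rested on 7 to 95 reads per library and did not pass (-1.24, SE 0.36, adjusted p = 0.0543). It passed with DESeq2 (adjusted p = 0.0333), by CPM (adjusted p = 0.0135) and without NZB:C57 replicate 1 (-1.58, adjusted p = 0.0169). Fabp4 read 10.2, 8.94 and 8.07 against 4.39, 4.27 and 3.79 (-0.97, SE 0.23, adjusted p = 0.0163), and the call was lost without NZB:NZB replicate 1 (adjusted p = 0.0798), NZB:NZB replicate 2 (adjusted p = 0.0537) or NZB:C57 replicate 3 (adjusted p = 0.0544).

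Tie1 and Egfl7 had the smallest differences. Tie1 read 21.8, 18 and 19.8 in NZB:NZB and 13.4, 15.7 and 13.7 in NZB:C57 livers, without overlap but short of the threshold (-0.45, SE 0.15, adjusted p = 0.104), though it passed in a fit of these 2 groups alone (adjusted p = 0.0407). Egfl7 read 23.6, 22.0 and 22.7 against 21.3, 20.4 and 16.5 (-0.23, SE 0.15, adjusted p = 0.495), with a 95% interval of -0.55 to 0.09. By CPM, where the median of all genes moved to -0.22, both passed as lower, beside 19.9% of all genes, Tie1 by -0.67 (adjusted p = 0.0079) and Egfl7 by -0.45 (adjusted p = 0.0487).

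On the BL/6J nucleus, NZB in place of C57 mtDNA (BL/6J:NZB against BL/6J:C57) gave log2 fold changes above 0 for 10 of 10 members, with a median of 0.56, but 0 members passed in limma. In this comparison 1 of 13159 genes was called (0.0076%). At an unadjusted p under 0.05 there were 6 members, edgeR called 0, and DESeq2 called 2, Kdr (0.88, adjusted p = 0.0077) and Aqp1 (0.82, adjusted p = 0.00314). Counts at an unadjusted p, here and further on, are given without the share over all genes and are not read as results. Kdr read 27.8, 19.5 and 19.9 in BL/6J:C57 and 55.8, 36.6 and 30.3 in BL/6J:NZB livers, without overlap (0.81, SE 0.19, limma adjusted p = 0.222). Aqp1 read 59.2, 43.5 and 49.0 against 108, 83.6 and 74.9, also without overlap (0.79, SE 0.17, adjusted p = 0.204). The BL/6J:NZB livers spread widely, with replicate 1 highest for both genes. Egfl7 read 28.5, 22.8 and 18 against 22.9, 24.7 and 27.1, and its groups overlapped (0.13, SE 0.15).

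A difference in the effect of NZB mtDNA between the 2 nuclei was not detected in liver. The test of that difference in limma called 0 members, beside 2.49% of all genes, with 3 members at an unadjusted p under 0.05 and 0 called by edgeR or DESeq2. Its largest value was 0.75 for Fabp4 (SE 0.32, adjusted p = 0.422). The interval of Kdr ran from -0.02 to 1.16 and that of Cdh5 from 0.16 to 1.16. Without BL/6J:C57 replicate 3, Stab2 passed this test (0.80, adjusted p = 0.0326). Averaged over both nuclei, a comparison added after the data were seen, NZB mtDNA went with higher levels of 7 members, beside 3.58% of all genes called higher. Kdr was higher by 1.10 (SE 0.14, adjusted p = 0.000195), Aqp1 by 1.05 (SE 0.12), Cdh5 by 0.95 (SE 0.12), Tek by 0.91 (SE 0.15), Pecam1 by 0.89 (SE 0.12) and Stab2 by 0.71 (SE 0.11). Fabp4 also passed (0.59, SE 0.16, adjusted p = 0.0416), but lost its call when any 1 liver was left out other than BL/6J:C57 replicates 1 and 3 and BL/6J:NZB replicate 2 (adjusted p up to 0.11), and with edgeR (adjusted p = 0.0638), without a filter on low values (adjusted p = 0.0856) or with the trend on GC content and length removed (adjusted p = 0.0729). Tie1 (0.37, adjusted p = 0.0616) passed without BL/6J:C57 replicate 1 (0.46), by CPM (0.52) and with the GC and length trend removed (adjusted p = 0.0488). Lyve1 (0.87, adjusted p = 0.0611) passed without BL/6J:NZB replicate 3 (adjusted p = 0.0435) or NZB:C57 replicate 1 (1.05), by CPM (0.96) and with DESeq2 (adjusted p = 0.0165).

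**Figure D2:**
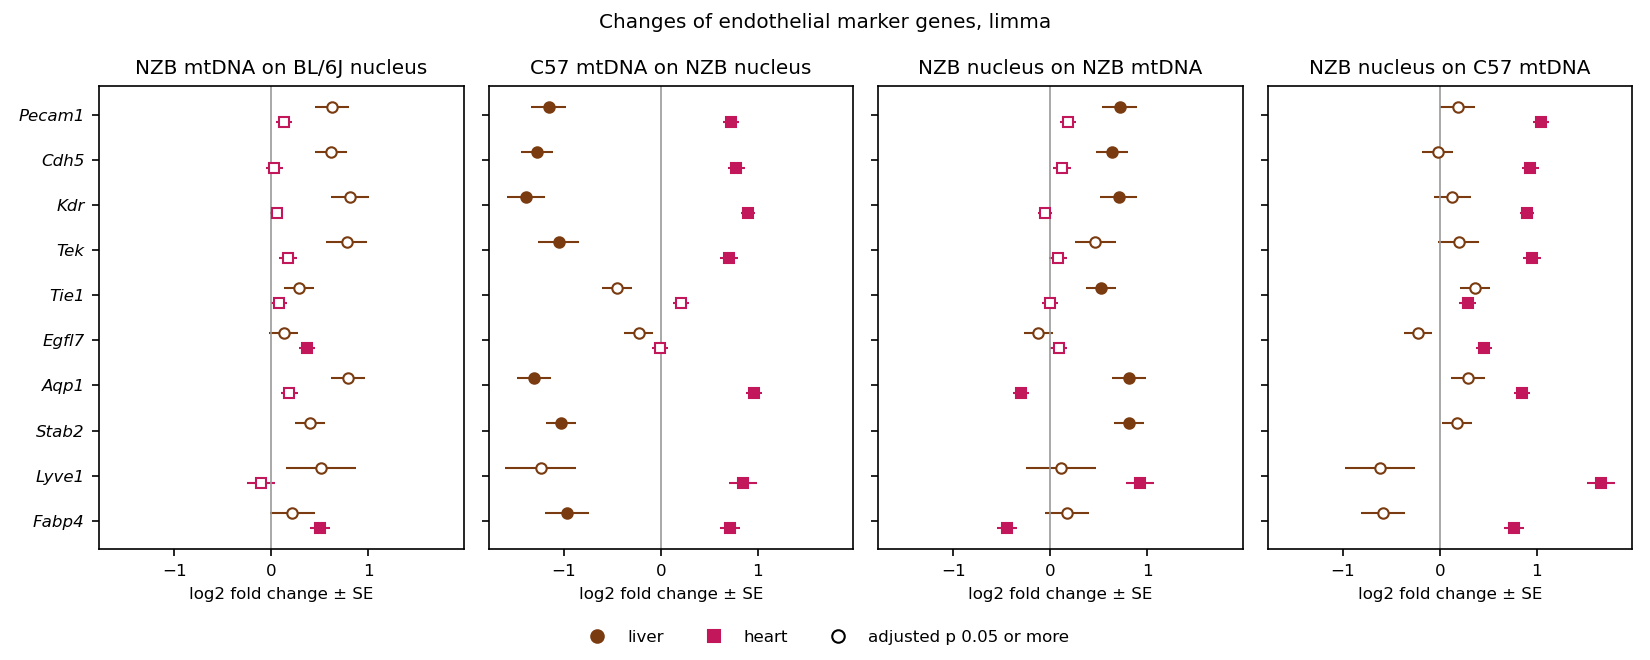
Log2 fold change ± SE of each gene in liver (brown circles) and heart (pink squares) in 4 comparisons, from limma on log2(value + 1); filled symbols passed an adjusted p under 0.05. With C57 mtDNA on the NZB nucleus, Kdr is at -1.38 in liver and at 0.90 in heart, while Egfl7 is at -0.23 and -0.00.

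The nuclear genome also went with endothelial marker levels in liver, on NZB mtDNA. NZB:NZB livers were higher than BL/6J:NZB livers for 6 members (Pecam1, Cdh5, Kdr, Tie1, Aqp1 and Stab2), beside 12.9% of all genes. Stab2 read 60.7, 53.2 and 46.1 in BL/6J:NZB and 97.9, 87.9 and 95.6 in NZB:NZB (0.81, SE 0.16, adjusted p = 0.00176, limma), and Aqp1 was higher by 0.81 (SE 0.17, adjusted p = 0.00388). Pecam1 was higher by 0.71 (SE 0.18, adjusted p = 0.00905) and Tie1, from 13.2, 13.6 and 13.6 to 21.8, 18 and 19.8, by 0.53 (SE 0.15, adjusted p = 0.0221). None of the 6 members overlapped between groups, but the share of all genes without overlap was not computed. In the same livers 5 of 10 stellate cell and fibroblast markers were higher, with sums of 342 to 375 in NZB:NZB and 219 to 336 in BL/6J:NZB, and hepatocyte markers summed to 167368 to 170429 against 109470 to 119195, with 1 of 10 higher and 1 lower. Their part in the endothelial differences was not tested. The count of members fell to 3 when 1 library was left out. Tie1 lost its call without any 1 of BL/6J:NZB replicates 1 to 3 or NZB:NZB replicates 1 or 3 (adjusted p = 0.0545 to 0.0903). Kdr (0.70, adjusted p = 0.0167) lost it without BL/6J:NZB replicate 2 or 3 or NZB:NZB replicate 1 or 3 (adjusted p = 0.0582 to 0.0819), and Cdh5 (0.64, adjusted p = 0.0114) without BL/6J:NZB replicate 3 (adjusted p = 0.0574) or NZB:NZB replicate 3 (adjusted p = 0.0501).

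On C57 mtDNA, NZB:C57 and BL/6J:C57 livers did not differ detectably for any member in limma, although 27.9% of all genes were called. At an unadjusted p under 0.05 there were 2 members, as the 95% intervals of Tie1 (0.03 to 0.69) and Fabp4 (-1.07 to -0.09) did not hold 0, and edgeR and DESeq2 also called 0 members. The interval of Kdr ran from -0.29 to 0.55 and that of Cdh5 from -0.38 to 0.33. Leaving out 1 library let Tie1 (0.55, adjusted p = 0.00841, without BL/6J:C57 replicate 1), Fabp4 (-0.85, adjusted p = 0.00573) and Egfl7 (-0.38, adjusted p = 0.0424), both without BL/6J:C57 replicate 3, or Aqp1 (0.49, adjusted p = 0.0401, without NZB:C57 replicate 3) pass.

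In heart, most members were higher with C57 than with NZB mtDNA on the NZB nucleus on the authors' scale. With C57 in place of NZB mtDNA on the NZB nucleus, 7 of the 9 members tested were higher (Pecam1, Cdh5, Kdr, Tek, Aqp1, Lyve1 and Fabp4), beside 13.0% of 13803 genes called higher. Kdr read 222, 221 and 213 in NZB:NZB hearts and 424, 434 and 369.6 in NZB:C57 hearts, a log2 fold change of 0.90 (SE 0.07, adjusted p = 2.42e-08, limma). Aqp1 read 208, 256 and 233 against 442, 441 and 469.8 (0.96, SE 0.09, adjusted p = 1.38e-07). Cdh5 rose from 200.2 ± 18.8 to 344 ± 34.9 (0.78, SE 0.09, adjusted p = 2.85e-06). For these genes every NZB:C57 heart exceeded every other heart of the study, as the plot of levels shows.

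Pecam1 rose from 179.8 ± 15.3 to 297 ± 11.6 (0.73, SE 0.08), Tek from 69.3 ± 1.17 to 114 ± 14.1 (0.70, SE 0.09) and Fabp4 from 349 ± 26.9 to 573 ± 21.8 (0.71, SE 0.10), with adjusted p from 3.08e-06 to 5.27e-05 in limma. Lyve1 read 14.6, 21.1 and 17.4 in NZB:NZB and 28.7, 35.4 and 33.3 in NZB:C57 (0.85, SE 0.15, adjusted p = 0.000324). Tie1 read 104, 123 and 103 against 127, 139 and 116 with overlap (0.21, SE 0.08, adjusted p = 0.12), and it passed without NZB:NZB replicate 2 (0.29, adjusted p = 0.026) and with the trend on GC content and length removed (0.25, adjusted p = 0.00525). Egfl7 read 132, 120.1 and 109 against 123, 125 and 112 (-0.00, SE 0.08, 95% interval -0.18 to 0.17).

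These heart differences depended on the scaling. On the CPM scale, the median of all genes moved from -0.00 to -0.64, and Pecam1 was at 0.02, Cdh5 at 0.08, Tek at 0.01, Lyve1 at 0.18 and Fabp4 at 0.01, none of which passed. Pecam1 had 277 ± 24.8 CPM in NZB:NZB hearts and 281 ± 8.45 in NZB:C57 hearts. Kdr (0.20) and Aqp1 (0.26) passed as higher, with 337 ± 5.50 against 386 ± 29.4 and 358 ± 40.2 against 426 ± 18.9 CPM, and Tie1 (-0.49, adjusted p = 3.43e-05) and Egfl7 (-0.70, adjusted p = 7.52e-07) passed as lower, beside 5.66% of all genes higher and 71.8% lower. Against the shifted median of all genes, Aqp1 lay 0.90 above it, Kdr 0.84, Pecam1 0.67 and Tie1 0.15, and Egfl7 was at -0.06.

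**Figure D3:**
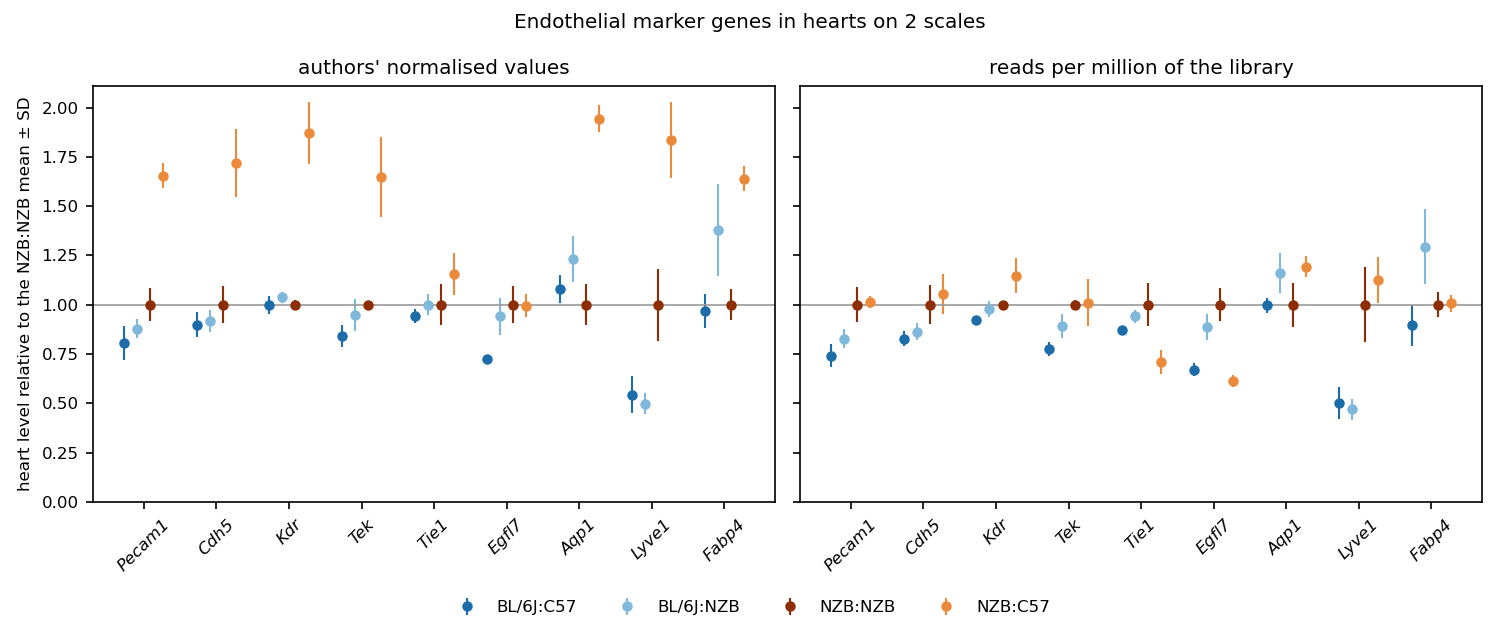
Heart level of each gene relative to its mean in NZB:NZB hearts (mean ± SD of 3 pools), on the authors' scale (left) and as CPM (right); Stab2 is left out because hearts hold at most 10 of its reads. NZB:C57 lies above the other genotypes for Kdr and Aqp1 on the left, while on the right Pecam1, Tek and Fabp4 of NZB:C57 lie near NZB:NZB and Tie1 and Egfl7 lie below it.

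With NZB mtDNA on the BL/6J nucleus, 2 of 9 members differed in heart, both upward, beside 0.427% of all genes called higher. Egfl7 read 85.0, 87.9 and 88.5 in BL/6J:C57 and 106, 108 and 126 in BL/6J:NZB hearts (0.37, SE 0.08, adjusted p = 0.0475, limma). Fabp4 read 306, 367 and 340.5 against 396, 489.7 and 558 (0.50, SE 0.10, adjusted p = 0.0421). Neither gene overlapped between groups, but both calls were lost without BL/6J:C57 replicate 1 or 3 or BL/6J:NZB replicate 2 or 3 (adjusted p = 0.132 to 0.227), with Egfl7 also lost without BL/6J:C57 replicate 2 (adjusted p = 0.0657). Kdr (0.06, 95% interval -0.09 to 0.20) and Cdh5 (0.03, -0.15 to 0.22) did not differ detectably.

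The mtDNA effect in heart differed between the nuclei for 7 members on the authors' scale. The difference of the NZB mtDNA effect (on the NZB nucleus minus on the BL/6J nucleus) was -0.95 for Kdr (SE 0.10, adjusted p = 2e-06, limma) and -1.21 for Fabp4 (SE 0.15, adjusted p = 1.21e-05), beside 9.81% of all genes called lower. Pecam1, Cdh5, Tek and Aqp1 ranged from -0.81 to -1.15. Lyve1 (-0.74, adjusted p = 0.0249) lost its call without BL/6J:C57 replicate 3, BL/6J:NZB replicate 1, NZB:NZB replicate 1 or 3, or NZB:C57 replicate 2 or 3 (adjusted p = 0.0519 to 0.0724) and without a filter on low values (adjusted p = 0.0611). Egfl7 was short of the threshold (-0.37, adjusted p = 0.0582), and passed with edgeR (adjusted p = 0.0449), with DESeq2 (adjusted p = 0.0296), with the GC and length trend removed (-0.38, adjusted p = 0.00642) and without BL/6J:NZB replicate 1, NZB:NZB replicate 1 or NZB:C57 replicate 3. Tie1 (-0.29, adjusted p = 0.151) passed without NZB:NZB replicate 2 (-0.37, adjusted p = 0.0434) and with the GC and length trend removed (-0.42, adjusted p = 0.002). By CPM, 5 members passed, beside 63.8% of all genes in either direction, Tie1 (0.38) and Egfl7 (0.30) with the opposite sign, while Pecam1 (-0.18), Cdh5 (-0.13), Tek (-0.21) and Lyve1 (-0.09) did not, with the median of all genes at 0.60.

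NZB:NZB and BL/6J:NZB hearts differed in 3 members. Lyve1 was higher with the NZB nucleus, at 14.6, 21.1 and 17.4 against 9.69, 7.78 and 8.96 (0.92, SE 0.15, adjusted p = 0.000144, limma), beside 15.5% of all genes called higher. Macrophage markers were also higher there (6 of 8 tested), with sums of 190 to 213 in NZB:NZB and 128 to 160 in BL/6J:NZB hearts, while 4 lymphatic genes summed to 80.1 to 90.7 against 103 to 123, with 1 higher and 1 lower. The part of these cells in the Lyve1 difference was not tested. Fabp4 was lower, at 380.4, 331 and 337 against 396, 489.7 and 558 (-0.45, SE 0.10, adjusted p = 0.00335), and Aqp1 was lower at 208, 256 and 233 against 297, 256 and 306 (-0.30, SE 0.09, adjusted p = 0.0132), beside 13.6% of all genes. The Aqp1 groups overlapped narrowly, and its call was lost without BL/6J:NZB replicate 3 (adjusted p = 0.0638) or NZB:NZB replicate 1 (adjusted p = 0.054) and by CPM (-0.21, adjusted p = 0.0567), where Pecam1 passed as higher (0.27, adjusted p = 0.0125). NZB:C57 hearts exceeded BL/6J:C57 hearts for all 9 members tested, beside 22.1% of all genes, from 0.29 for Tie1 (SE 0.08, adjusted p = 0.0131, lost without NZB:C57 replicate 2 with adjusted p = 0.0852) to 1.66 for Lyve1 (SE 0.15, adjusted p = 6.39e-08). With CPM the median of all genes in this comparison moved to -0.52, with 1670 of 14278 genes called higher and 9007 lower. On that scale Tie1 passed as lower (-0.30, adjusted p = 0.00298), Egfl7 turned to -0.13 without passing (adjusted p = 0.134) and Fabp4 no longer passed (0.18, adjusted p = 0.122).

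The differences between C57 and NZB mtDNA on the NZB nucleus in liver and heart were compared in 1 test over both tissues, added after the data were seen. This test does not need opposite directions, which were seen on the authors' scale. By CPM, as given above, Pecam1, Cdh5, Tek, Lyve1 and Fabp4 did not pass in heart, and Tie1 and Egfl7 passed there as lower, as in liver. Heart minus liver was above 0 for all 10 members and passed for 9, beside 16.2% of all genes called higher, with 2.28 for Kdr (SE 0.22, adjusted p = 4.29e-08, limma), 2.26 for Aqp1 (SE 0.21) and 2.06 for Cdh5 (SE 0.19). Egfl7 did not pass (0.22, SE 0.17, adjusted p = 0.403), and Tie1 passed with 0.66 (SE 0.18) on the authors' scale but not by CPM (0.18, adjusted p = 0.389, median of all genes -0.40). The value of Stab2 (1.36, SE 0.24) was larger in size than its liver difference (-1.03), and its heart part rests on 2 to 10 reads per library. On the authors' scale, opposite signs were also common over all genes compared. Among 7550 genes that reached 5 or more in every library, 81.0% had opposite signs in the 2 tissues and Pearson's r between the changes was -0.87, across genes, which are not independent replicates. For NZB mtDNA on the BL/6J nucleus the same figures were 61.3% and -0.29, and the tissue difference called 0 members in limma, beside 0.0735% of all genes, with 5 members at an unadjusted p under 0.05, 0 called by edgeR and 4 called by DESeq2 (Cdh5, Kdr, Tek and Aqp1) and 1, Kdr, in limma without BL/6J:NZB liver replicate 3.

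**Figure D4:**
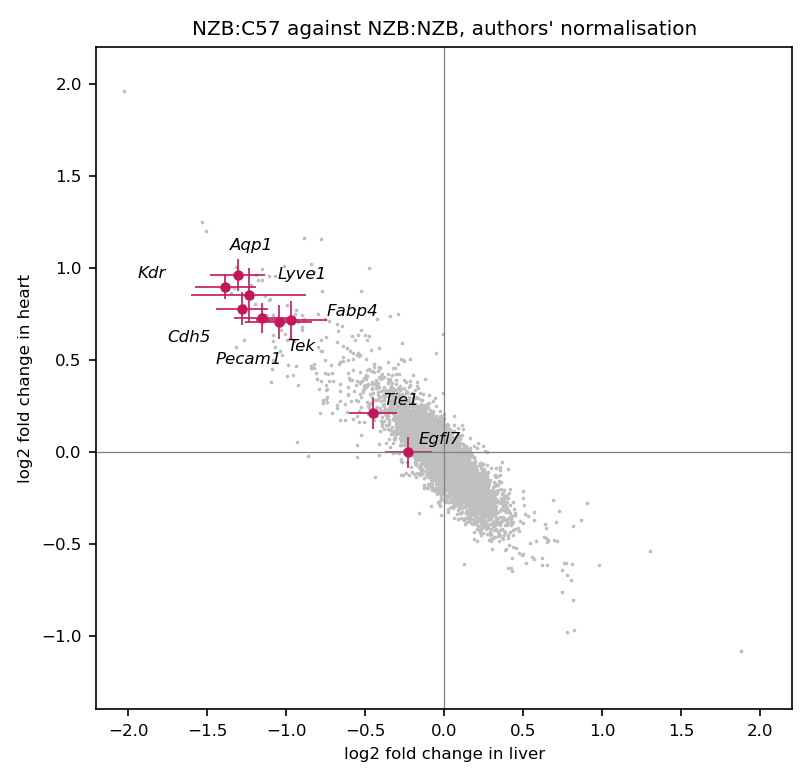
Log2 fold change of NZB:C57 against NZB:NZB in liver (horizontal) and heart (vertical), authors' scale; grey points are the 7550 genes that reached 5 or more in every library, and pink points with SE bars are the marker genes tested in both tissues. The markers lie at the upper left of a cloud that runs from upper left to lower right (r = -0.87), with Tie1 and Egfl7 near its centre.

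Of 3 ratios between markers computed for each library, 2 varied little with genotype. These ratios were chosen after the values were seen and are descriptions. The ratio of Pecam1 to Cdh5 had group means from 0.732 to 0.859 in liver and from 0.804 to 0.899 in heart, with overlap between groups in all 8 comparisons. The ratio of Aqp1 to Kdr had group means from 2.23 to 2.56 in liver and from 1.06 to 1.26 in heart. By contrast, Kdr to Egfl7 was 0.981 ± 0.124 in BL/6J:C57 livers, 1.68 ± 0.678 in BL/6J:NZB, 2.87 ± 0.201 in NZB:NZB and 1.26 ± 0.0262 in NZB:C57. In heart it was 2.51 ± 0.166, 2.02 ± 0.225, 1.83 ± 0.135 and 3.41 ± 0.0910 in the same order. Of the 8 comparisons within a tissue, groups overlapped for this ratio only between NZB:NZB and BL/6J:NZB hearts.

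**Figure D5:**
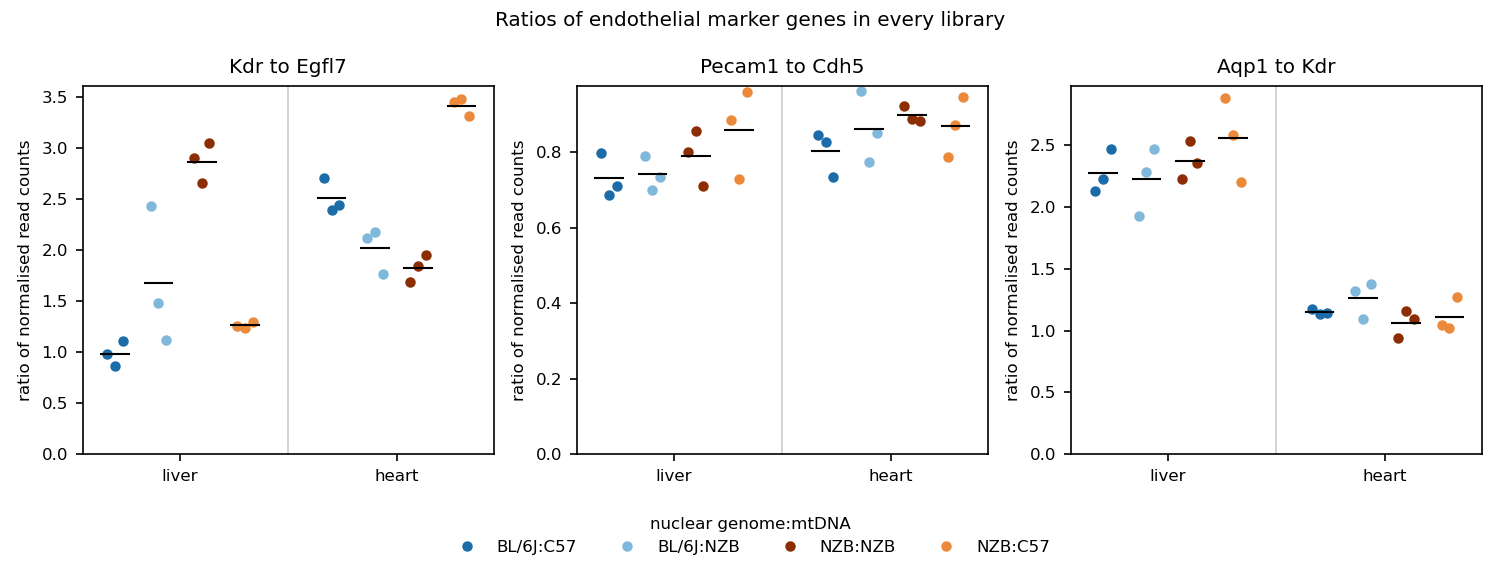
Ratio of normalised read counts in every library (points) with means of 3 pools (bars) for Kdr to Egfl7, Pecam1 to Cdh5 and Aqp1 to Kdr. The first varies with genotype, from 0.981 to 2.87 in liver and from 1.83 to 3.41 in heart, and the other 2 stay within a narrow range in each tissue.

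Across the 12 livers, the 6 pairs among Pecam1, Cdh5, Kdr and Tek had a median Pearson's r of 0.97 on log2(value + 1), and 0.83 for the deviations from group means. In heart the medians were 0.96 and 0.61. Egfl7 had medians of 0.34 in liver and 0.56 in heart with the other 5 general markers. These correlations describe libraries that share depth and scaling, and carry no test. The genes whose levels followed the mean of 6 general markers (Pecam1, Cdh5, Kdr, Tek, Tie1 and Egfl7) most closely in liver, among 9917 genes, were Ccnd2, a cyclin (r = 0.98), Ptprb, the endothelial phosphatase that acts on Tek (0.98), Rasgrp3 (0.97) and Lbh (0.97). In heart, among 10236 genes, they were Zeb2 (0.99), Smtn, a smooth muscle protein (0.99), Igdcc4 (0.98) and the Notch ligand Jag2 (0.98).

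Among the other VEGF and angiopoietin genes, the receptors Flt1 and Flt4 were lower in liver with C57 mtDNA on the NZB nucleus. On the authors' scale both were higher in heart. No VEGF ligand passed in liver. With C57 mtDNA on the NZB nucleus, 3 of 8 VEGF genes tested fell in liver, beside 4.44% of all genes: the receptors Flt1, from 16.2 ± 1.74 to 5.26 ± 2.14 (-1.50, SE 0.23, adjusted p = 0.00087), and Flt4, the receptor of lymph vessels and sinusoids, from 29.5 ± 2.16 to 12.3 ± 2.09 (-1.21, SE 0.16), and the coreceptor Nrp2 (-0.79, SE 0.22, adjusted p = 0.0426). The ligands Vegfa (0.08), Vegfb (-0.14), Vegfc (-0.24) and Vegfd (-0.07) and the coreceptor Nrp1 (0.29) did not pass. Of the angiopoietin group, Ptprb fell from 106 ± 9.95 to 41.3 ± 8.49 (-1.35, SE 0.22), and Angpt1, the activating ligand of Tek, fell by 0.63 (SE 0.17, adjusted p = 0.0367), though at levels of 1.2 ± 0.0921 and 0.422 ± 0.114. In heart on the authors' scale, where 13.0% of all genes were higher, Flt1 rose from 93.0 ± 13.4 to 216 ± 12 (1.21, SE 0.10), Flt4 by 0.84 (SE 0.14), Ptprb by 0.86 (SE 0.10), Angpt1 by 1.31 (SE 0.15) and Angpt2 by 1.12 (SE 0.18), and the ligand Vegfb by 0.28 (SE 0.07). The largest was Pgf, a ligand of Flt1, from 2.71 ± 0.700 to 25.0 ± 4.85 (2.81, SE 0.19, adjusted p = 3.99e-09), and Nrp1 fell by 0.29 (SE 0.09, adjusted p = 0.0404). In CPM, Pgf (2.26), Flt1 (0.52), Angpt1 (0.64) and Angpt2 (0.54) still passed as higher, Flt4 (0.16) and Ptprb (0.16) did not pass, and Vegfb (-0.42) and Vegfa (-0.85) passed as lower.

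Of 23 other general endothelial genes, 9 fell and 0 rose in these livers, with a median of -0.66, and 16 rose and 0 fell in these hearts, with a median of 0.43. Over all genes, as given above, 4.44% were lower in these livers and 13.0% higher in these hearts, and the counts of this and the following lists stand beside those shares. The heart direction depended on the scaling: by CPM 1 was higher and 12 lower, with a median of -0.26 beside -0.64 over all genes, with 5.66% of all genes higher and 71.8% lower on that scale, whereas in liver 0 were higher and 17 lower, beside 19.9% of all genes lower. Adgrl4, an adhesion receptor of endothelium, went from 23.7 ± 3.30 to 6.28 ± 2.84 in liver (-1.84, SE 0.31) and from 49.5 ± 4.13 to 143 ± 4.13 in heart (1.51, SE 0.08). Among 14 other sinusoidal genes 6 fell in liver, with a median of -0.75, including Fcgr2b (-1.03, SE 0.19), Gpr182 (-1.19, SE 0.22) and Ehd3 (-1.18, SE 0.25). Of 7 endothelial transcription factors 1 fell in liver, Ets1 (-0.99, SE 0.16), and 3 rose in heart, led by Fli1 from 10.2 ± 1.01 to 35.2 ± 0.719 (1.70, SE 0.12). Among genes of muscle capillaries, the fatty acid transporter Cd36 fell from 42.1 ± 3.46 to 13.9 ± 0.560 in liver (-1.53, SE 0.12, adjusted p = 9.59e-07) and rose from 1054 ± 103 to 2493 ± 48.1 in heart (1.25, SE 0.08). The 7 genes of that list summed to 135 to 167 in NZB:NZB and 117 to 147 in NZB:C57 livers, which overlapped. In heart the sums, mostly Cd36, were 1064 to 1279 and 2621 to 2707. Cd36 alone is described and does not stand for the list. Of 8 Notch pathway genes, which act in arterial identity, 0 of 6 tested passed in liver and 3 rose in heart: Hey1 (1.59, SE 0.16), Jag2 (0.76, SE 0.12) and Dll4 (0.48, SE 0.09). By CPM, Adgrl4 (0.82), Fli1 (1.04), Cd36 (0.54) and Hey1 (0.94) still passed as higher in heart, while Jag2 (0.08) and Dll4 (-0.21) did not pass. Mmrn1, a lymphatic endothelial gene, was listed at 0 in all 12 BL/6J libraries and read 4.89 ± 0.193 in NZB:NZB and 10.7 ± 2.04 in NZB:C57 hearts.

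Markers of other cell types moved alongside. With C57 mtDNA on the NZB nucleus, 6 of 10 stellate cell and fibroblast markers were lower in liver, with sums of 128 to 197 in NZB:C57 and 342 to 375 in NZB:NZB, as were 4 of 7 pericyte and smooth muscle markers tested (40.8 to 49.9 against 79.1 to 90.7) and 3 of 11 macrophage markers, with 1 higher (325 to 438 against 323 to 424). Hepatocyte markers summed to 192988 to 208625 against 167368 to 170429, with 2 of 10 higher and 1 lower. In the same hearts 6 of 9 stellate and fibroblast, 5 of 8 pericyte and 8 of 8 heart muscle markers were higher. In CPM, 8 of 8 heart muscle markers were still higher, against 2 of 9 stellate and fibroblast markers with 4 lower, and 1 of 8 pericyte markers with 4 lower, beside the 71.8% of all genes lower on that scale. The part of these cells in the endothelial differences was not tested. Erythroid markers, which bear on Aqp1, summed to 482 to 927 in NZB:C57 and 1025 to 1416 in NZB:NZB livers, and 0 of 5 tested passed, as did 0 of 5 bile duct markers. In heart, where Aqp1 was higher in NZB:C57, erythroid markers summed to 5477 to 17916 in NZB:C57 and 2864 to 5598 in NZB:NZB, with 2 of 6 tested higher on the authors' scale and 1 of 6 by CPM. Their part in the Aqp1 difference was not tested.

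Some NZB livers held heart muscle transcripts. The 8 markers summed to 43.7 to 151 in NZB:NZB and 0.314 to 148 in NZB:C57 livers, against 0.279 to 1.08 in BL/6J livers, with Myl3 and Mb at 0 in BL/6J:C57 and Myh6, Myl2 and Mb at 0 in BL/6J:NZB. In NZB:NZB livers this was at most 0.537% of the level in NZB:NZB hearts. That share of the heart level would be at most 3.19% of the liver level of Pecam1, 1.72% of Kdr and 0.821% of Aqp1, but up to 18.3% of Fabp4. Hepatocyte markers in hearts summed to 15.7 to 189. Of the fat cell markers, 6 of 6 tested were higher in NZB:NZB than in BL/6J:NZB hearts, beside 15.5% of all genes called higher. Adipoq, the fat cell hormone adiponectin, read 0.456 to 0.894 in BL/6J hearts, 4.29 to 12.5 in NZB:NZB and 2.29 to 19.2 in NZB:C57 hearts. Fabp4 was lower in NZB:NZB than in BL/6J:NZB hearts, as given above. The part of fat cells in the Fabp4 difference was not tested.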

How the data were processed

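Polyadenylated RNA of 24 pools was sequenced on the Illumina GA IIx platform, per the labels' protocols. The deposited values are a normalised signal per gene, named so by the authors in the file headers, and the submitters' processing notes list cutadapt 1.2.1, RSEM 1.2.3, Bowtie2 2.0.6, edgeR and GRCm38 without roles. Use of strand in counting is not stated in those notes. GRCm38 derives from C57BL/6J, and whether reads of NZB alleles were counted as completely was not tested. Values were whole multiples of what 1 read is worth in every library (100% within 0.01 reads), so reads could be recovered, and depth ran from 3714278 to 34974268 reads. Symbols came from GENCODE for 15106 of 15323 genes (98.6%).

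The main test was limma 3.58.1 (R 4.3.3) with an intensity trend on log2(value + 1), for genes that reached 1 in 3 or more libraries of the fit. The 12 libraries of a tissue, or all 24 for comparisons of tissues, shared 1 estimate of spread, and p-values were adjusted by Benjamini and Hochberg over all genes tested, with 0.05 as threshold. Fold changes on this scale understate changes of low genes. Alternatives were a pseudocount of 0.1, no filter, library totals (CPM of recovered reads), edgeR 4.0.16 and DESeq2 1.42.0 on recovered reads, only the groups compared, a replicate block, and each library left out in turn. Removal of the trend on GC content and length, the 2 tissue differences of effects and the mean over nuclei were added after seeing the data. The fit was tested on simulated data. Of each gene list the 3 genes with the smallest adjusted p among those past the threshold were named per comparison, with all VEGF and angiopoietin genes and members in full. Per tissue, the genes most correlated with the general markers were named (the 4 highest of 10 are printed, and others of the 10 on a gene list). The members and lists were chosen with earlier results of these data known.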

Additional observations from a re-analysis of the deposited data

Results flagged for a closer look

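Effects that differed between groups by a test of the difference itself are listed here. In heart, the effect of NZB mtDNA on the NZB nucleus minus that on the BL/6J nucleus passed in limma for 7 markers. The values on the log2 scale were -0.86 for Pecam1, -0.81 for Cdh5, -0.95 for Kdr, -0.87 for Tek, -1.15 for Aqp1, -0.74 for Lyve1 and -1.21 for Fabp4. By CPM, Kdr, Aqp1 and Fabp4 still passed with the same sign. All of these rest on the NZB:C57 hearts, whose heart muscle marker sum was 252624 to 261558 against 27454 to 43989 in the other hearts, and the part of this in the values was not tested.

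The effect of C57 mtDNA on the NZB nucleus differed between heart and liver for 9 markers, as heart minus liver. The values were 1.88 for Pecam1, 2.06 for Cdh5, 2.28 for Kdr, 1.75 for Tek, 0.66 for Tie1, 2.26 for Aqp1, 1.36 for Stab2, 2.09 for Lyve1 and 1.68 for Fabp4. Tie1 did not pass by CPM. Groups of 3 pools are too small for a test of single outlying libraries.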

How the results depend on the processing

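Library totals in place of the authors' scaling reversed the direction of Tie1 with C57 mtDNA on the NZB nucleus in heart (-0.49), of Tie1 (-0.30) and Egfl7 (-0.13) with the NZB nucleus on C57 mtDNA in heart, and of Tie1 (0.38) and Egfl7 (0.30) in the heart difference of mtDNA effects between nuclei. It changed the members called in heart with C57 mtDNA on the NZB nucleus from 7 to 4. DESeq2 called 2 members in liver with NZB mtDNA on the BL/6J nucleus and 4 in the tissue difference of that effect, against 0 in limma for both. In heart with NZB mtDNA on the BL/6J nucleus, the 2 calls became 1 with a pseudocount of 0.1 and 0 without a filter. Leaving out 1 library gave 0 to 2 members there, 3 to 6 in liver for the NZB nucleus on NZB mtDNA, 0 to 2 for the NZB nucleus on C57 mtDNA, 0 to 1 for the liver difference between nuclei and 0 to 1 for the tissue difference of NZB mtDNA on BL/6J. The cause of these changes was not tested. Over all genotype pairs, no pairing of pools by replicate number was seen. Deviations of same-numbered pools had a median correlation of 0.01 (-0.27 to 0.23, 18 pairs) in liver and -0.03 (-0.18 to 0.14) in heart. Differently numbered livers had a median of -0.02 (-0.34 to 0.49, 36 pairs). Between BL/6J:NZB and NZB:NZB livers, however, same-numbered pools were at 0.225, 0.228 and 0.193, and differently numbered ones at -0.153 to -0.0796. The cause of this was not tested, nor was pairing of livers with hearts. The replicate block gave 0 members in heart with NZB mtDNA on the BL/6J nucleus and 1 in liver for the NZB nucleus on C57 mtDNA (Fabp4, -0.58), and let Lyve1 pass in liver with C57 mtDNA on the NZB nucleus (-1.24, adjusted p = 0.0258).

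Counts over all genes moved further. In liver, NZB mtDNA on BL/6J gave 1 gene in limma, 2 with a pseudocount of 0.1 or edgeR, 0 without a filter, 84 with DESeq2, 5 with the replicate block and 1 to 196 with a library left out. C57 mtDNA on NZB gave 1064 genes, 2902 under library totals and 660 to 920 with a library left out, the NZB nucleus on C57 mtDNA 3670 and 2392 with only the groups compared, and the mean over nuclei 876, 2953 under totals and 607 to 1370 with a library left out. In heart, NZB mtDNA on BL/6J gave 129 genes, 3 without a filter, 423 with DESeq2, 15 with the block, 233 with only the groups compared and 6 to 195 with a library left out. Totals took the count from 2190 to 11059 for C57 mtDNA on NZB, from 4865 to 10677 for the NZB nucleus on C57 mtDNA, and from 1550 to 9112 for the difference between nuclei. The tissue differences went from 3571 genes to 7987 (totals), 2106 (edgeR) or 2137 (DESeq2), and from 11 to 6 (pseudocount of 0.1), 56 (totals), 431 (DESeq2), 3 (GC and length) or 0 to 1053 (a library left out). Under totals the share of calls that were higher moved in liver from 45.1% to 12.1% (C57 mtDNA on NZB), from 52.1% to 69.0% (NZB nucleus on NZB mtDNA), from 26.8% to 45.3% (difference between nuclei) and from 53.8% to 90.6% (mean over nuclei). In heart it moved from 45.7% to 64.2% (NZB mtDNA on BL/6J), from 81.8% to 7.31% (C57 mtDNA on NZB), from 53.2% to 68.5% and from 62.7% to 15.6% (NZB nucleus on NZB and on C57 mtDNA) and from 12.6% to 92.5% (difference between nuclei). For heart against liver it moved from 48.4% to 77.0%, 49.5% to 77.2%, 50.3% to 77.6% and 49.8% to 63.5% in BL/6J:C57, BL/6J:NZB, NZB:NZB and NZB:C57, and for the tissue differences from 67.9% to 17.9% and from 27.3% to 10.7%. Depth limits Stab2 in heart (2 to 10 reads) and Lyve1 in liver (7 to 122 reads).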
